A study of Arabidopsis thaliana with 2 samples.

Results

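The 10 genes described here encode the pseudo-response regulators PRR9, PRR7, PRR5, PRR3 and TOC1 of the Arabidopsis thaliana circadian clock, the evening complex proteins ELF3, ELF4, LUX and BOA, and CHE, a transcription factor that acts with TOC1. They were taken by gene identifier from the 33557 genes in each deposited table. RNA-seq had been run on seedlings of the arp6-1 mutant in the Col-0 background, which lack a functional ARP6, a subunit of the SWR1 complex that places the histone variant H2A.Z in chromatin. The plants were 10 days old, had grown in long days at 17 °C, and were kept at that temperature until harvest, 15 min into an experiment whose shifts started 1 h after lights on. Both libraries, replicate 1 and replicate 2, belong to this 1 group (2 libraries), and the labels do not say whether these came from separate cultures, so the spread between them may be technical. No other genotype, temperature or time of day was analysed here, and a mutation shared by both libraries cannot be told apart from any other property of these plants.

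In the plant clock, genes for repressor proteins are transcribed in turn through the day. CCA1 and LHY peak around dawn and repress genes of the evening. The PRR proteins follow one another from morning to evening, in the order PRR9, PRR7, PRR5 and TOC1, and repress CCA1 and LHY. The evening complex, in which ELF3 joins the small protein ELF4 to the DNA-binding protein LUX or its close relative BOA, represses PRR9, PRR7 and growth genes such as PIF4 during the night, and it is released from DNA at warm temperature. Shortly after dawn the early PRR genes are known to come on, and the evening genes to be low, in wild-type plants.

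Sequence before the gene starts is shown first because it holds the DNA words by which CCA1, LHY and light-responsive factors are known to read these genes. The window searched was the 300 bases before the RefSeq gene start in assembly TAIR10.1. The evening element, AAATATCT on either strand, is the site bound by CCA1 and LHY, and the G-box, CACGTG, is bound by light-signalling factors of the bHLH and bZIP families. In the stretches below, written 5′ to 3′ on the strand of the gene and taken from the RefSeq genome, capitals mark these motifs. PRR9 and PRR7 stand for the G-box pattern, and TOC1, ELF4, LUX and BOA for the evening-element pattern.
PRR9 (chr2:19232343-19232460, plus strand): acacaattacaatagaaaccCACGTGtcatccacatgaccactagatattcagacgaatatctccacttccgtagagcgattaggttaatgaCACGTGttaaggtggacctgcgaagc
PRR7 (chr5:642206-642251, minus strand): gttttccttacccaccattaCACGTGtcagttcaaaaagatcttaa
TOC1 (chr5:24674792-24674839, plus strand): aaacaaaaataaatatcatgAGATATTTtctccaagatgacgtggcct
ELF4 (chr2:16735166-16735223, minus strand): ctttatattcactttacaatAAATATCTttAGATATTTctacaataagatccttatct
LUX (chr3:17182829-17183017, plus strand): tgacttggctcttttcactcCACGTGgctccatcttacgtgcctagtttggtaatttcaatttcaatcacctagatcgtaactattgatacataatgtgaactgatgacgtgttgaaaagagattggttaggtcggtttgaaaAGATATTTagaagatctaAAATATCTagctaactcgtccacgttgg
BOA (chr5:24003781-24003872, plus strand): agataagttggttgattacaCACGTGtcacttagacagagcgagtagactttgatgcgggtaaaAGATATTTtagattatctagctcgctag

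An evening element lay in the window of 5 of the 10 genes, namely PRR5, TOC1, ELF4, LUX and BOA, against 5.64% of 27443 windows before nuclear protein-coding genes. PRR5, ELF4 and LUX held 2 copies each, and TOC1 and BOA 1. In ELF4 the copies faced opposite ways and began 250 and 240 bases before the gene start, and in LUX they began 70 and 52 bases before it. A G-box lay in the windows of PRR9, PRR7, LUX and BOA, 4 of 10 against 7.09% of all windows. PRR9 had 2 G-boxes, 244 and 172 bases before its start, and no evening element in this window. LUX and BOA shared an arrangement, a G-box followed by evening elements nearer the start. PRR3 and CHE held none of the motifs searched. The CCA1-binding site AAAAATCT was found before PRR5 alone (7.94% of all windows). The LUX-binding sites GATACG and GATTCG were found before ELF3 and ELF4 (5.51%) and before PRR9 (9.34%) respectively. The TCP site GTGGGNCC, of the kind CHE binds, was found before none (1.18%), and the heat shock element GAANNTTC before PRR7 and ELF3 (11.5%). No motif searched contains another, and each was read on both strands.

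The match depends on where a gene is taken to start. The RefSeq model of PRR5 begins 327 bases inside the span the files give for that gene, so that its evening elements fall in what the files treat as transcribed sequence. With the gene starts of the files, evening elements lay before PRR9, TOC1, ELF4, LUX and BOA, again 5 of 10, against 5.64% of 26686 windows. The heat shock element then lay before PRR7 alone, CHE gained a TCP site and a GATTCG site, and 0 of the 10 held the CCA1-binding site (7.97% of windows). With 1000 bases before the RefSeq start, the CCA1-binding site lay before PRR9, PRR5, BOA and CHE (21.1% of windows). A match of letters is a description and shows no binding.

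**Figure D1:**
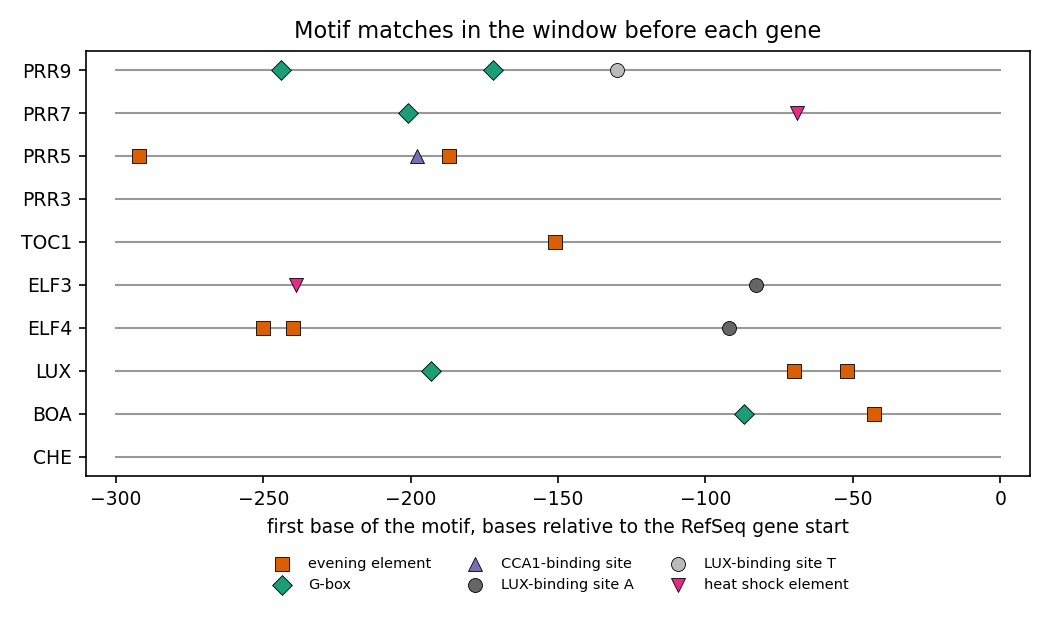
Positions of motif matches in the 300 bases before the RefSeq start of each gene. The horizontal axis is the distance of a motif's first base from the gene start in bases, and symbols mark the motif. Evening elements sit before PRR5, TOC1, ELF4, LUX and BOA, and G-boxes before PRR9, PRR7, LUX and BOA.

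The gene counts summed to 20249142 in replicate 1 and to 12410991 in replicate 2. A count of 0 allows up to 3 counts, which is 0.148 CPM (counts scaled to library size) in replicate 1 and 0.242 CPM in replicate 2, for counting error only. ARP6 had 7 counts in each library. Leaf genes such as RBCS1A (4550 and 4937 TPM in replicates 1 and 2) and the root genes SCR (58.3 and 48.1 TPM) and PIN2 (19.3 and 6.95 TPM) were present, while the seed, pollen and flower genes CRU3, VGD1 and AG had 0 counts in both. The duplicates stood apart in 9 of 9 dehydration and abscisic acid genes, whose summed level was 113 TPM in replicate 1 and 7561 TPM in replicate 2. Levels are given below as the authors' deposited TPM, a transcript abundance per length and library size, with mean ± SD of the 2 libraries (n = 2). With seedlings, fewer cells of a type and less RNA per cell cannot be told apart.

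PRR9 was the most abundant of the 10 genes, PRR7 and TOC1 were intermediate, and PRR5 and PRR3 were the lowest. PRR9 (AT2G46790, chromosome 2, 19232649 to 19235087 in the coordinates of the files, build TAIR10) is the first of the repressors to appear after dawn. It had 2173 counts in replicate 1 and 1790 in replicate 2, at 70.1 and 96.7 TPM (83.4 ± 18.9). It ranked above 85.9% and 89.0% of the 20568 tested genes in the libraries, and no other of the 10 genes overlapped its range.

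PRR7 (AT5G02810, chromosome 5, 637897 to 641977), the morning repressor that follows PRR9, had 416 and 666 counts, at 8.14 and 21.8 TPM (15.0 ± 9.69). As a ratio, its libraries were the farthest apart of the 10 genes. TOC1 (AT5G61380, chromosome 5, 24675064 to 24678550), the evening repressor also known as PRR1, had 601 and 397 counts, at 13.0 and 14.4 TPM (13.7 ± 1.02). Both libraries thus gave TOC1 nearly the same level, which lay inside the range of PRR7.

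PRR5 (AT5G24470, chromosome 5, 8355951 to 8358873), a repressor that peaks around the middle of the day, had 53 and 37 counts, at 1.51 and 1.72 TPM (1.62 ± 0.148). PRR3 (AT5G60100, chromosome 5, 24197998 to 24201404), which is known to protect TOC1 from its F-box protein ZTL, had 29 and 25 counts, at 0.776 and 0.972 TPM (0.874 ± 0.139). PRR3 was the lowest of the 10 genes and ranked above only 3.85% and 6.72% of tested genes. Exact 95% Poisson intervals of its counts were 19.4 to 41.6 and 16.2 to 36.9, so that its level is known to counting error of this width. Although TOC1 is an evening gene and PRR5 a daytime one, TOC1 stood 8.57 and 8.37 times higher than PRR5 in the libraries.

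Within the family PRR9 made up 74.95% and 71.3% of the summed TPM of the PRR genes (73.1 ± 2.59). TOC1 made up 13.9% and 10.6%, PRR7 8.71% and 16.1%, PRR5 1.62% and 1.27%, and PRR3 0.830% and 0.716%. PRR9 exceeded PRR5 by 46.3 and 56.1 times and PRR3 by 90.3 and 99.5 times in replicates 1 and 2. The excess of PRR9 over PRR7 differed more between the libraries, 8.60 and 4.43 times, and TOC1 and PRR7 changed places between them. The ratios to PRR5 depend on the gene model. With TPM computed from the counts and RefSeq exon lengths, PRR9 exceeded PRR5 by 32.1 and 37.9 times. TOC1 then exceeded PRR5 by 6.77 and 6.41 times, and PRR9 exceeded PRR3 by 98.2 and 93.8 times.

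The level of PRR9 carries an uncertainty that the other members do not share. Of its 1895 exonic stretches of 50 bases, 779 (41.1%) recur elsewhere in the genome, and these 779 lie in AT2G46670 (chromosome 2, 19164414 to 19165233), a gene 67416 bases away on the opposite strand. The shared part is the 3′ end of PRR9, from 19234274 to 19235179 in TAIR10.1. AT2G46670 had 408 and 285 counts, at 33.8 and 40.6 TPM. How the authors divided reads between both genes is not given in the sources used here, so part of the counts of either may belong to the other. Every 50-base stretch was unique in the genome for 8 of the other members, and 99.7% were for BOA.

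**Figure D2:**
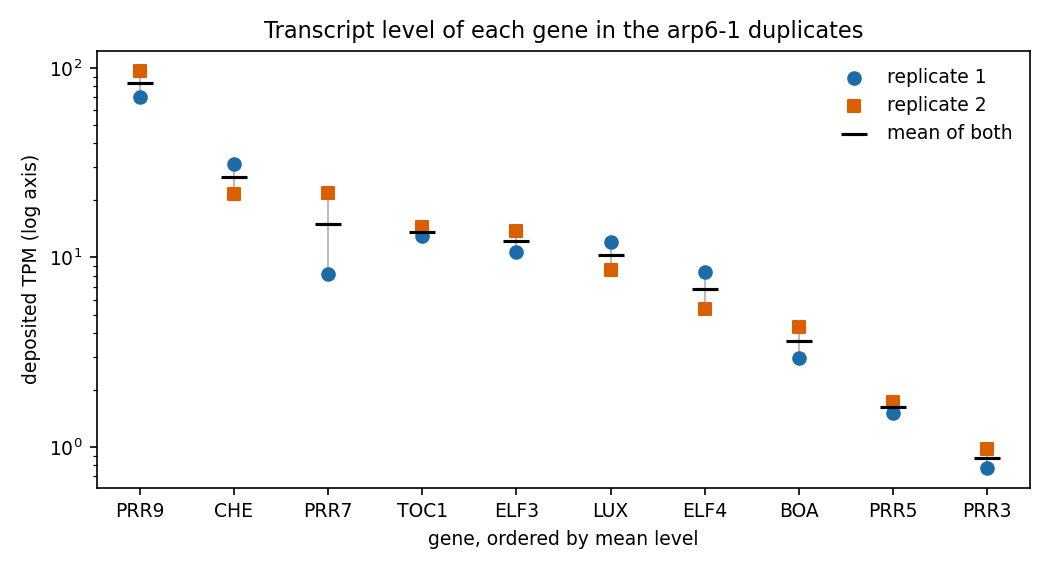
Deposited TPM of the 10 genes on a log axis, ordered by mean, with replicate 1 as circles, replicate 2 as squares and the mean of both as a bar. PRR9 stands above the rest at 70.1 and 96.7 TPM, the points of PRR7, TOC1, ELF3 and LUX overlap, and PRR5 and PRR3 are at the bottom.

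The evening complex genes were moderate to low and within a narrower range than the PRR genes. ELF3 (AT2G25930, chromosome 2, 11059035 to 11063324), the scaffold of the complex, had 525 and 410 counts, at 10.6 and 13.8 TPM (12.2 ± 2.21). LUX (AT3G46640, chromosome 3, 17183070 to 17185218), a MYB-like factor that carries the complex to DNA, had 292 and 120 counts, at 12.1 and 8.62 TPM (10.4 ± 2.45). ELF3 was thus higher in replicate 2 and LUX in replicate 1, and their ranges overlapped.

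ELF4 (AT2G40080, chromosome 2, 16734294 to 16734912), whose transcript peaks in the evening, had 70 and 26 counts, at 8.38 and 5.34 TPM (6.86 ± 2.15). Its exact Poisson intervals were 54.6 to 88.4 and 17.0 to 38.1 counts. BOA (AT5G59570, chromosome 5, 24003888 to 24005512), the relative of LUX also known as NOX, had 72 and 65 counts, at 2.95 and 4.32 TPM (3.63 ± 0.970). Both libraries placed BOA below the other evening complex genes. LUX exceeded BOA by 4.10 times in replicate 1 and 2.00 times in replicate 2. The summed level of the complex was close in the libraries, 34.05 and 32.0 TPM, while its makeup shifted. ELF3 supplied 31.2% and 42.9%, LUX 35.5% and 26.9%, ELF4 24.6% and 16.7%, and BOA 8.65% and 13.5%. With TPM computed from the counts and RefSeq exon lengths, LUX supplied 18.7% and 12.8% and ELF3 47.9% and 62.3%, and their levels no longer overlapped. BOA then supplied 4.95% and 7.42%. The RefSeq exon lengths of LUX and BOA exceed the spans deposited for these genes, which lowers their computed levels. The computed shares thus mix gene models and do not show what another model would give. These shares say nothing of protein amounts, which were not measured.

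CHE (AT5G08330, chromosome 5, 2680744 to 2681813), a TCP factor that binds the CCA1 promoter and interacts with TOC1, had 520 and 207 counts, at 31.3 and 21.6 TPM (26.4 ± 6.86). In replicate 2 it was level with PRR7, and in replicate 1 it stood well above it.

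Ordered by mean level, the genes ran from PRR9 through CHE, PRR7, TOC1, ELF3, LUX, ELF4, BOA and PRR5 to PRR3. The ranges of the libraries overlapped between neighbours for CHE and PRR7, PRR7 and TOC1, TOC1 and ELF3, and ELF3 and LUX. The order of these 5 genes among neighbours is thus not settled. In deposited TPM, TOC1 was above ELF3 in each library. In TPM computed from RefSeq exon lengths, TOC1 was higher in replicate 1 (17.8 against 15.9) and ELF3 in replicate 2 (20.7 against 19.6). The ranges were separate for PRR9 against CHE, ELF4 against BOA, BOA against PRR5 and PRR5 against PRR3. LUX and ELF4 were separate only narrowly, at 8.62 TPM for LUX in replicate 2 and 8.38 for ELF4 in replicate 1. Among genes that were not neighbours, PRR7 at 8.14 TPM in replicate 1 lay below ELF4 at 8.38, so their ranges overlapped. With 2 libraries this is a description and no test. TPM computed from the counts and RefSeq exon lengths was 5.23 for LUX and 2.06 for BOA. These were below the computed 7.63 of ELF4 and 2.85 of PRR5, respectively. RefSeq gives LUX and BOA 3916 and 3655 exonic bases, against spans of 2149 and 1625 bases in the files. Counts deposited for the shorter spans were thus divided by longer lengths, which lowers both genes. The computed order therefore does not settle their place. The deposited level of PRR5, whose RefSeq model is shorter, was 0.575 and 0.562 times the computed one in replicates 1 and 2.

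The 5 genes with an evening element before the RefSeq start had levels of 1.51 to 13.0 TPM in replicate 1 and 1.72 to 14.4 in replicate 2. The 5 without one spanned 0.776 to 70.1 and 0.972 to 96.7 TPM, and so enclosed the first set. With the gene starts of the files, PRR9 joined the genes with an evening element and PRR5 left them.

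The duplicates were then compared gene by gene with the exact binomial test on counts scaled by TMM, Benjamini-Hochberg adjusted over all 20568 tested genes. This test covers counting error only and compares these libraries, since the design holds no other group. All 10 genes were tested, and 4 were higher and 2 lower in replicate 2, against 32.6% of all tested genes higher and 31.5% lower. With 6 of 10 past the test against 64.1% of all genes, the share of the 10 genes was near the background. Of 7 reference genes, 2 were higher and 2 lower in replicate 2 by the same test. Their 2 largest log2 differences were 0.58 for AT2G28390 and 0.44 for UBC21, both higher in replicate 2.

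PRR7 differed most. It was 2.79-fold higher in replicate 2 (95% counting interval 2.46 to 3.16, adjusted p = 2.81e-61 by the binomial test), and 9.85% of all tested genes had a larger difference in either direction. PRR9 was 1.43-fold higher (1.35 to 1.53, adjusted p = 3.89e-28). With the counts of PRR9 and AT2G46670 summed, the log2 difference of 0.52 became 0.48. PRR3 and PRR5, with log2 differences of 0.55 (-0.25 to 1.41) and 0.27 (-0.37 to 0.91), did not pass the test, and at this depth no difference was detectable for either. TOC1, at 1.15-fold (1.01 to 1.31), fell just short, with an adjusted p of 0.0507.

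The evening complex genes went both ways. ELF3 was 1.36-fold higher in replicate 2 (1.19 to 1.55, adjusted p = 1.15e-05 by the binomial test) and BOA 1.57-fold higher (1.11 to 2.23, adjusted p = 0.0169). LUX was 1.40-fold higher in replicate 1 (1.13 to 1.74, adjusted p = 0.00345). ELF4 stood 1.55-fold higher in replicate 1 but did not pass (0.974 to 2.53, adjusted p = 0.0843). By counting error alone, LUX and its relative BOA thus differed in opposite directions. CHE was 1.44-fold higher in replicate 1 (1.23 to 1.70, adjusted p = 1.38e-05).

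**Figure D3:**
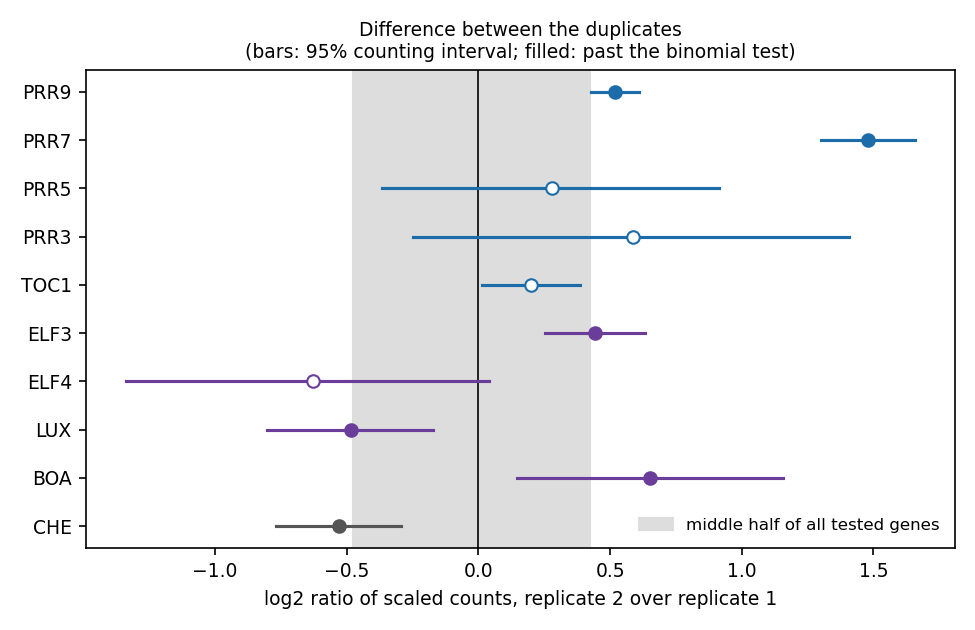
Log2 ratio of scaled counts, replicate 2 over replicate 1, for each gene, with 95% counting intervals as bars and filled points for genes past the binomial test. The grey band spans the central 50% of differences over all tested genes, from -0.48 to 0.42, and PRR7 lies well to its right.

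PRR7 was also past a stricter test that allows for spread between libraries. That spread was itself estimated from these same libraries, taken as 1 group, so the test gives no independent support. When edgeR's exact test was given the dispersion of 7 reference genes (coefficient of variation 13.5%), PRR7 passed (adjusted p = 1.03e-05) and the other members did not, 1 of 10 against 24.0% of all tested genes. With the dispersion of all tested genes (coefficient of variation 42.0%), 0 of the 10 passed in edgeR, against 1.10% of all genes higher and 0.0924% lower, 1.19% together. Under that dispersion 0 of the 10 had an unadjusted edgeR p below 0.05, against 1211 of the 20568 tested genes. With 10 genes, 0 is near that background. The 9 dehydration and abscisic acid genes were higher in replicate 2 by 4.38 to 9.62 on the log2 scale, and the root gene PIN2 was lower by 1.46 and SCR by 0.22. All these move with the same contrast, and their part in the member differences was not tested. ELF3 overlaps AT2G25940 by 24 bases at its 3′ end in the files, and that gene had 39 and 59 counts, so the counts of ELF3 are uncertain to that extent. RefSeq also places an antisense RNA, AT2G08135, inside ELF3, and without a known strand setting its reads cannot be told apart from those of ELF3.

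Of 55 genes in 8 lists around the clock, 50 were tested. The binomial test placed 32 higher in replicate 2 and 3 lower, against the same background of 32.6% and 31.5%. The lists were chosen with earlier results of these data known, so this is a description and no test of the lists. Allowing for the spread of the reference genes, 12 were higher and 0 lower in edgeR's exact test, against 12.2% and 11.7% of all. These were 6 morning partners, 4 output genes, 1 partner of the evening complex and 1 relative of the members. At the dispersion of all tested genes, 0 of the 50 passed in edgeR, against 1.19% of all. The calls given below for single lists are those of the binomial test, which covers counting error only. All values that follow for single genes are log2 differences, replicate 2 minus replicate 1, or levels in TPM.

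The morning partners, which the PRR proteins repress or which activate PRR genes, were higher in 9 of 9 cases by the binomial test, with a median difference of 0.80 against -0.01 over all tested genes. At the dispersion of the reference genes 6 of the 9 passed, while LHY, LNK2 and RVE4 did not (edgeR adjusted p of 0.761, 0.719 and 0.186), and at that of all tested genes 0 passed. LHY was the highest at 406 ± 25.4 TPM and differed by 0.15 (0.12 to 0.19), while AT5G52660 was the lowest at 24.0 ± 11.05 TPM and differed most, by 1.03 (0.83 to 1.24). LNK3, of a family of co-activators, differed by 0.91 (0.83 to 1.00). CCA1, added for its place as the target of both PRR proteins and CHE, had 181 and 294 TPM. LHY exceeded TOC1 by 29.9 and 29.4 times in the libraries, and CCA1 by 13.9 and 20.4 times.

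Of the output genes 5 of 6 were higher by the binomial test, against 32.6% of all tested genes, with a median difference of 0.89. At the dispersion of the reference genes 4 passed in edgeR, and at that of all tested genes 0. PIF4, a growth gene that the evening complex represses, had 10.4 and 21.5 TPM and differed by 1.03 (0.82 to 1.25). CDF1, a repressor of flowering genes that PRR proteins hold down, differed by 1.01 (0.87 to 1.15). PIF5 was the highest at 99.0 ± 38.5 TPM and AT1G69570 the lowest at 3.27 ± 0.954 TPM.

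The genes that control turnover of PRR proteins showed smaller differences. GI, which stabilises ZTL, had 24.5 and 19.7 TPM and was lower by 0.26 (-0.39 to -0.14). ZTL, the F-box protein that marks TOC1 and PRR5 for degradation, had 29.9 and 36.0 TPM and was higher by 0.27 (0.14 to 0.40). LKP2, its relative, had 10.0 and 10.6 TPM and did not pass the test. FKF1 had 6 and 2 counts and was not tested. Of the 3 tested, 1 was thus higher and 1 lower by the binomial test, against 32.6% and 31.5% of all tested genes. At the dispersion of the reference genes 0 passed in edgeR.

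Corepressors that PRR proteins recruit were higher in 4 of 6 cases and lower in 1, against 32.6% and 31.5% of all tested genes. At the dispersion of the reference genes 0 passed in edgeR. TPL was the most abundant at 75.1 ± 13.5 TPM and TPR3 the least at 9.33 ± 2.93 TPM. The largest differences were those of TPR3, lower by 0.61 (-0.83 to -0.40), and TPR1, higher by 0.54 (0.43 to 0.65). Of 11 partners of the evening complex, 8 were higher and 0 lower, with a median of 0.16, and 1 passed in edgeR at the same dispersion. AT2G16365 was the highest of them at 58.9 ± 10.6 TPM and AT4G34550 the lowest at 12.8 ± 2.59 TPM. The largest differences were those of AT2G25760 at 0.90 and BBX19, a B-box protein that binds ELF3, at 0.49.

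Among activators and splicing factors that act on PRR genes, 1 of 6 was higher and 1 lower, against 32.6% and 31.5% of all tested genes. At the dispersion of the reference genes 0 passed in edgeR. SKIP, a splicing factor needed for correct PRR7 and PRR9 transcripts, was the highest at 49.6 ± 11.6 TPM and differed by 0.50 (0.40 to 0.60). PRMT5, a methyltransferase needed for PRR9 splicing, was lower by 0.70 (-0.91 to -0.51), with 24.1 and 14.2 TPM. TCP20 was the lowest at 8.52 ± 1.06 TPM. CKB3 and CKB4 encode regulatory subunits of the kinase CK2, which acts on CCA1, and WNK1 a kinase that phosphorylates PRR3. The kinase genes stood at 43.7 and 42.7 TPM for CKB3, 24.4 and 30.1 TPM for CKB4 and 26.2 and 36.9 TPM for WNK1. Of these, CKB4 and WNK1 passed the binomial test as higher, against 32.6% of all tested genes, and 0 passed in edgeR at the dispersion of the reference genes. The files hold 1 value per gene, so splice forms were not measured.

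Of 10 relatives of the members, 6 were tested and 2 were higher, against 32.6% of all tested genes. At the dispersion of the reference genes 1 passed in edgeR. APRR2 was the highest at 43.1 ± 13.5 TPM and differed by 0.72 (0.60 to 0.84), and APRR4 and APRR6 had 0 counts in both libraries. TCP7, a relative of CHE, stood at 38.2 ± 4.23 TPM and differed by 0.29 (0.12 to 0.46). Of the ELF4-like genes, named once their values were known, ELF4-L2 had 16.4 and 14.2 TPM and ELF4-L4 9.37 and 10.9 TPM. Both were above ELF4 itself in each library. The other ELF4-like genes listed were below ELF4 in each library, ELF4-L1 at 0.524 and 0.475 TPM and ELF4-L3 at 2.06 and 2.68 TPM.

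**Figure D4:**
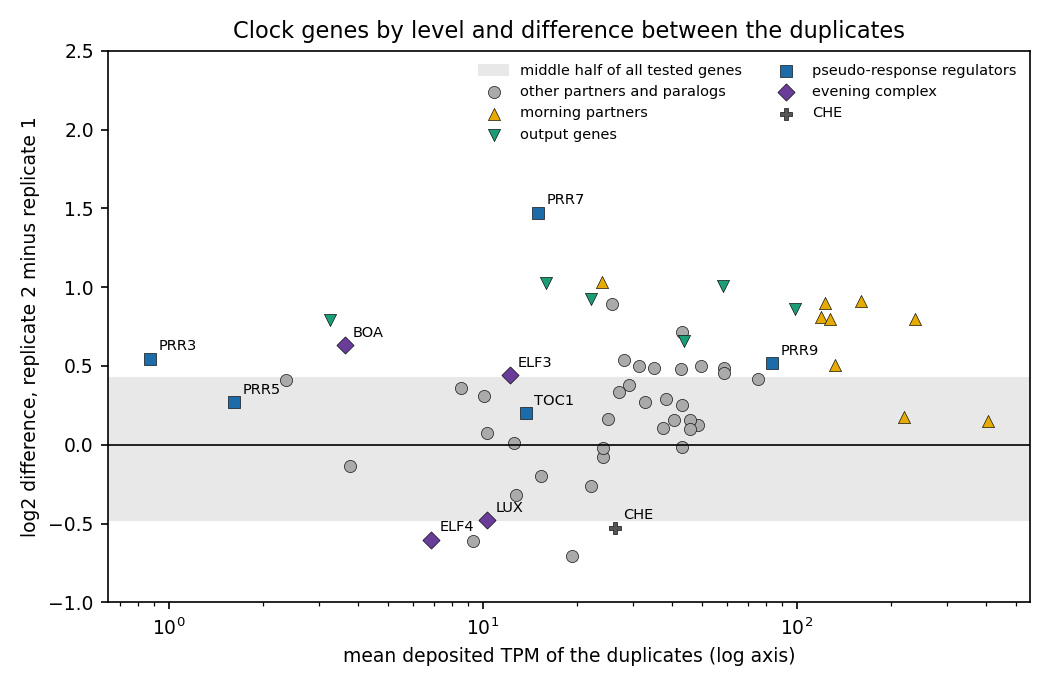
Mean deposited TPM on a log axis against the log2 difference between the duplicates for the 10 genes and the tested genes of the 8 lists, with lists as symbols. Morning partners and output genes all lie above 0, LUX, ELF4 and CHE lie below it, and the grey band spans the central 50% of all tested genes.

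PRR9 and CCA1 lie near each other on chromosome 2, with starts 13023 bases apart and 3 genes between them, and PRR7 and RVE4 on chromosome 5, with starts 10807 bases apart and 4 genes between them. RVE4, a MYB-like relative of CCA1, had 114 and 152 TPM. CCA1 exceeded PRR9 by 2.58 and 3.04 times in replicates 1 and 2.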

How the data were processed

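Total RNA from seedlings was made into libraries with stranded and unstranded TruSeq kits and read as pairs of 100 bases, per the labels' protocols, which do not say which library had which kit. FastQC, Trimmomatic, TopHat, Picard and the build TAIR10 are named in the submitters' processing notes. Neither the counting tool nor its strand setting is given in the sources used here. The authors deposited raw counts per gene, FPKM and TPM, per the file headers, and TPM equals the authors' FPKM times 1 constant per library. Gene starts in the files count from 0 (44.7% of matched starts equal RefSeq's after adding 1, 0.408% before) and are printed from 1. Counts and TPM disagree for some genes, with 88 at 0 counts but above 10 TPM in both libraries, none of them a member.

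Genes with at least 20 summed counts (20568) were compared by a two-sided binomial test, exact and conditional on each gene's sum (SciPy 1.17.1) on library sizes scaled by TMM in edgeR 4.0.16 (factors 1.03 and 0.968), at a Benjamini-Hochberg adjusted p of 0.05. Log2 differences use a prior count of 2, and intervals are 95% Clopper-Pearson counting intervals. Because reads lacked molecular identifiers and may repeat a molecule, intervals and floors cover counting error only. Poisson counts without spread between libraries were simulated for replicate 2 against replicate 1 over 20568 genes. On these, 85 of 100 genes changed 2-fold, 94 of 100 changed 4-fold and 11 of 20368 unchanged genes were called. These rates hold for counting error alone and do not cover the spread between real libraries. Alternatives were DESeq2 1.42.0 size factors, total counts, other count minimums, edgeR exact tests with a fixed dispersion, a prior of 0.5, a pseudocount of 0.1, CPM, and TPM computed from counts and RefSeq exon lengths. Promoter stretches come from RefSeq, TAIR10.1.

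The members and the 14 lists (80 genes) were chosen with earlier results of these data known. Named are all members and, in each list, the highest, the lowest and the 2 largest differences past the test, with lists of up to 4 in full. The 11 list genes whose symbol the reference lacks are given by identifier or left unnamed.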

Additional observations from a re-analysis of the deposited data

How the results depend on the processing

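No paired analysis was possible because the labels give 1 group, and no difference can be computed without either replicate. Scaling by DESeq2 size factors or total counts, and both other count minimums, left the counts of 13180 genes, 6 members and 35 clock-list genes past the binomial test within 1.5 times; ELF4 passed as lower in replicate 2 with total counts, which moved the share of calls that were higher from 50.8% to 43.0%. With the edgeR exact test, 4930 genes, 1 member and 12 list genes passed at the dispersion of the reference genes, and 245, 0 and 0 at that of all tested genes. These tests add spread between libraries, which was estimated from the same libraries. No member changed direction under any alternative run. The median level of the 10 genes, 3.60 on the log2(TPM + 1) scale, was 4.06 with CPM, 3.35 as a mean over members, and 3.38 to 3.58 with either replicate left out. With TPM from RefSeq lengths, LUX and BOA were lower and PRR5, PRR3, TOC1 and ELF3 higher by more than their SD. The counts of LUX and BOA belong to spans shorter than those lengths, which lowers both. An evening element was found for 5 members with 1000 bases (15.3% of all windows), 5 with the files' starts (5.64%) and 6 with both (15.6%), all added after the data were seen. Depth limits PRR3, PRR5 and ELF4 most, at 25, 37 and 26 counts in replicate 2.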

Other observations

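Genes next to the members on the chromosome went both ways, and those named here were chosen after their values were seen. Next to PRR7, at 1.47 on the log2 scale (replicate 2 minus replicate 1), AT5G02820 lay at -1.04 (95% counting interval -1.37 to -0.74) and AT5G02800 at 0.27 (0.06 to 0.47). Next to LUX, at -0.48, AT3G46630 lay at -0.60 (-0.82 to -0.40) and AT3G46650, which RefSeq places on the opposite strand in overlap with a longer LUX model, at 0.85 (0.61 to 1.10). Beside PRR3, which had 29 and 25 counts, AT5G60090 had 1 and 0 counts and AT5G60110 had 4 and 0. AT2G46670, which shares the 3′ end of PRR9, differed by 0.28 (0.06 to 0.50), against 0.52 (0.43 to 0.61) for PRR9.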
